A study of Mus musculus with 7 samples.

Results

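The 77 transcripts described here carry the symbols Mrpl or Mrps and, except for Mrps36, encode proteins of the mitochondrial ribosome. They were chosen by name: every measured gene whose symbol begins with Mrpl or Mrps and a digit was taken, and pseudogenes were left out. Of 16156 genes in the table, 77 met this rule, 48 named for the large subunit and 29 for the small subunit. Total RNA of mouse CD8 T cells was sequenced in 3 ACLY KO libraries and 4 WT libraries. Both groups were OT-I cells of the C57Bl/6 strain, which carry a transgenic T cell receptor for an ovalbumin peptide. The cells of both groups bore a congenic mark and were transferred to C57Bl/6 recipients, which 1 day later were infected with Listeria monocytogenes expressing ovalbumin, and were recovered 6 days after infection. ACLY is ATP citrate lyase, which makes cytosolic acetyl-CoA from citrate, and the sources used here do not state how Acly was deleted or in which cells. The single comparison was KO against WT.

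Mitochondria have ribosomes of their own, built of RNAs encoded in mitochondrial DNA and of proteins that are all encoded in the nucleus, made in the cytosol and imported. These ribosomes make only the few proteins of the respiratory chain and ATP synthase that mitochondrial DNA encodes. The large subunit joins amino acids and the small subunit reads the messenger RNA. Some of the proteins have counterparts in bacterial ribosomes, and others are found only in mitochondria. Activated CD8 T cells enlarge their mitochondria as they divide, and in mice mitochondrial translation is known to be needed for sustained killing by cytotoxic T cells.

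Counts summed to 37473484 to 39692359 in the KO libraries and to 45288353 to 75586011 in the WT libraries. Libraries of both groups stood apart from the rest, and this touches every result. The share of T cell receptor beta variable segment counts on Trbv12-1 and Trbv12-2, the family of the OT-I receptor, was 46.7%, 23.2% and 61.8% in KO replicates 1 to 3, against 99.0%, 99.2%, 99.0% and 84.5% in WT replicates 1 to 4, with means of 43.9% ± 19.4 over the KO libraries (SD, n = 3) and 95.4% ± 7.27 over the WT libraries (SD, n = 4). Levels are given as CPM, read counts scaled to a common library size with TMM factors. Summed levels of 12 B cell markers were 666 to 10890 CPM in KO and 246 to 683 CPM in WT, with Blk, Fcer2a, Fcrla, Ms4a1 and Pax5 at 0 in at least 1 WT library. Those of 12 macrophage and monocyte markers were 75.0 to 1298 CPM in KO and 40.1 to 58.2 CPM in WT, with Cd14 and Cd5l at 0 in at least 1 WT library. The 7 red cell markers summed to 238 to 47280 CPM in KO, highest in replicate 1, and to 1.48 to 475 CPM in WT. The 3 measured CD4 T cell markers summed to 9.22 to 186 CPM in KO and 9.29 to 34.1 CPM in WT. The 8 T cell markers, which define the labelled cell type, summed to 2842, 6864 and 6714 CPM in KO replicates 1 to 3 and 6604 to 8122 CPM in WT. WT replicate 4 stood apart in cell division transcripts: 20 cell cycle genes summed to 1537, 789 and 764 CPM in KO replicates 1 to 3, against 871, 853, 911 and 5621 CPM in WT replicates 1 to 4. The main counts and medians, and most of the members described, are therefore also given without KO replicate 1 and WT replicate 4, the libraries that stood farthest apart in red cell and in cell cycle transcripts. Leaving these out does not bring the KO libraries level with WT. KO replicates 2 and 3, at receptor shares of 23.2% and 61.8%, held 6566 and 238 CPM of red cell markers. They held 75.0 and 1006 CPM of macrophage and monocyte markers. The part of other cell types in the results was not tested. In bulk RNA, fewer cells of a type and less RNA per cell cannot be told apart. Acly itself was at 262, 62.0 and 209 CPM in KO and at 393, 339, 414 and 276 CPM in WT (edgeR adjusted p = 0.278).

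Most mitochondrial ribosomal protein transcripts were somewhat lower in KO than in WT, but no single one passed the adjusted test. The fitted log2 difference was below 0 for 62 of 77, with a median of -0.19, or 0.877 of the WT level. For the large subunit it was below 0 for 41 of 48 with a median of -0.19, and for the small subunit for 21 of 29 with a median of -0.16. Over all 16156 genes the median was -0.00 and 50.0% lay below 0, and over the 8749 genes with a mean of 10 CPM or more, which all 77 reached, it was -0.09 and 59.4%. With edgeR's quasi-likelihood test and Benjamini-Hochberg adjustment over all genes, 0 of 77 members were called at 0.05, as were 0% of all genes. At an unadjusted p under 0.05, 16 members were lower in KO and 1 was higher, against a background of 7.89% lower and 11% higher over all genes and of 12.4% lower and 8.39% higher over genes of 10 CPM or more. These 16 were 12 of 48 large subunit members (25.0%) and 4 of 29 small subunit members (13.8%), so the large subunit share stood above both backgrounds and the small subunit share was near that of genes of 10 CPM or more. The difference between the subunits was not tested. Under median-of-ratios and upper-quartile scaling the median of the 77 was -0.17 and -0.13, where the median of all genes was 0.02 and 0.06. The count test DESeq2 called 8 members lower (Mrpl20, Mrpl32, Mrpl33, Mrpl41, Mrpl42, Mrps16, Mrps18c and Mrps24) and 0 higher at an adjusted p under 0.05, where 3.61% of genes were called lower and 7.13% higher. The bias-adjusted form of edgeR's fit called only Mrpl33 (adjusted p = 0.04), where it called 0.477% of genes lower and 3.08% higher, and limma voom called 0 members, where it called 1.68% of genes lower and 5.32% higher. The labels do not say whether libraries came from separate animals, so these p-values measure only the spread between libraries. In simulated counts at the larger spread tried, which edgeR estimated from these counts, DESeq2 made 80 false calls and edgeR made 0. With that estimate multiplied by 0.1, DESeq2 made 45 and edgeR 11, and edgeR detected 58 of 100 planted 2-fold changes. The 8 members called by DESeq2 may therefore include false calls. At the larger spread edgeR detected only 4 of 100 planted 2-fold changes. These were planted in genes drawn from all 15993 with a mean count of 10 or more. Members had 354 or more counts in each library, so this rate need not hold for them. The 0 calls of edgeR do not show that levels were equal.

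**Figure D1:**
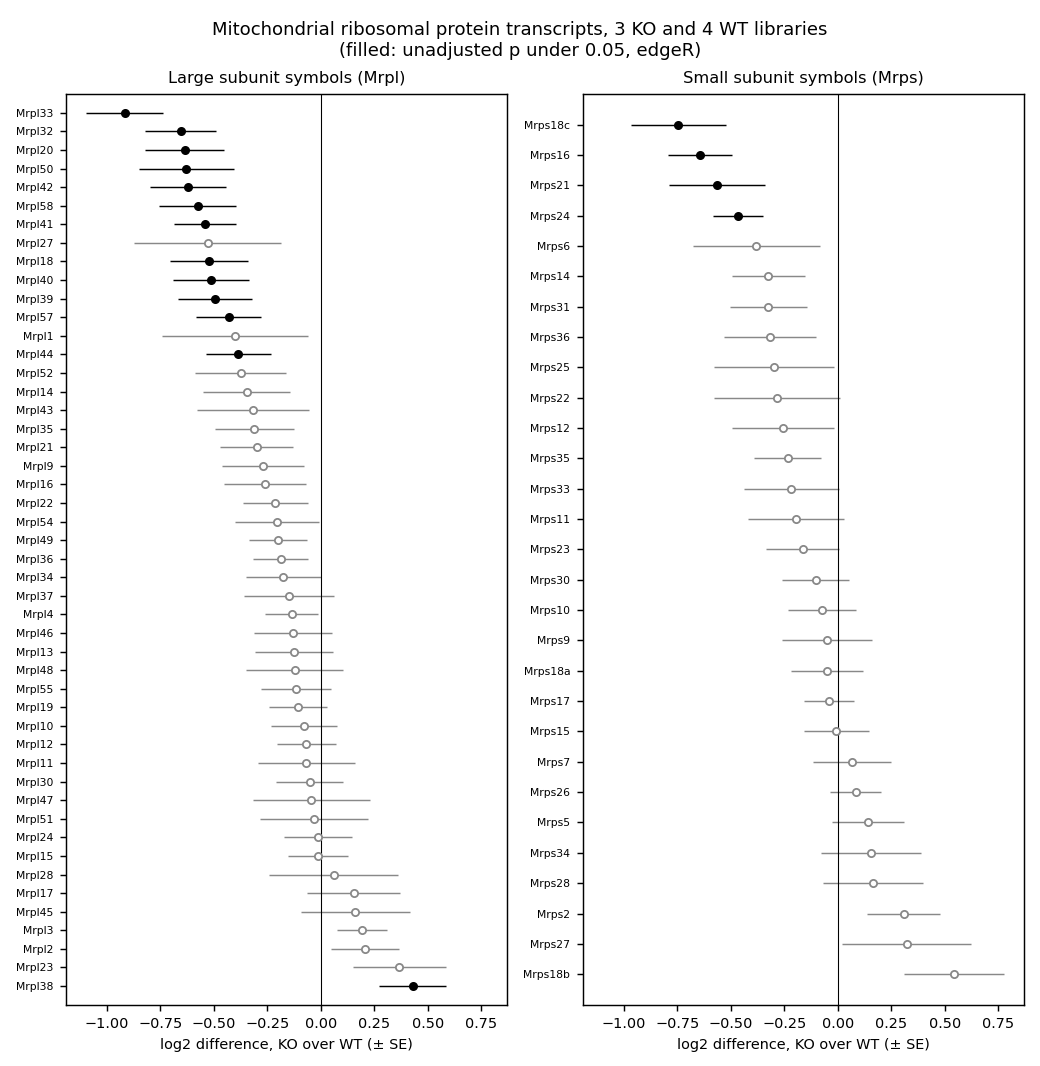
Fitted log2 difference of each of the 77 transcripts, ACLY KO over WT, with its standard error, for the 48 Mrpl genes (left) and the 29 Mrps genes (right). Filled points had an unadjusted p under 0.05 in edgeR's quasi-likelihood test: 12 large and 4 small subunit genes lie left of 0, and Mrpl38 alone lies right of it.

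Every KO library lay below every WT library for 18 of 77 members (23.4%), where 9.03% of all genes and 12.4% of genes of 10 CPM or more did so. This was 14 of 48 for the large subunit (29.2%) and 4 of 29 for the small subunit (13.8%), the second again near the background. Without KO replicate 1 and WT replicate 4 it was 19 of 77 members (24.7%), 14 of 48 large (29.2%) and 5 of 29 small (17.2%), against 25.3% of all genes and 29.8% of genes of 10 CPM or more, so no share then stood above the background of genes of 10 CPM or more. The reverse, with every KO library above every WT library, held for 5 members (6.49%), 3 large and 2 small, against 9.46% of all genes and 7.24% of genes of 10 CPM or more. Summed over the 77 genes, levels were 3284, 3461 and 3353 CPM in KO replicates 1 to 3, against 3766, 3871, 3472 and 4583 CPM in WT replicates 1 to 4. The groups did not overlap, but KO replicate 2 and WT replicate 3 were nearly level, and WT replicate 4 stood far above the other three. KO libraries averaged 3366 ± 89.6 CPM (SD, n = 3) and WT libraries 3923 ± 471 CPM (SD, n = 4), or 3703 CPM without WT replicate 4. The large subunit summed to 2145, 2230 and 2159 CPM in KO and to 2468, 2538, 2261 and 3062 CPM in WT, again without overlap. The small subunit summed to 1139, 1231 and 1194 CPM in KO and to 1298, 1333, 1211 and 1522 CPM in WT, and there KO replicate 2 lay above WT replicate 3. The members took 0.325% to 0.375% of all counts in KO libraries and 0.331% to 0.456% in WT libraries.

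**Figure D2:**
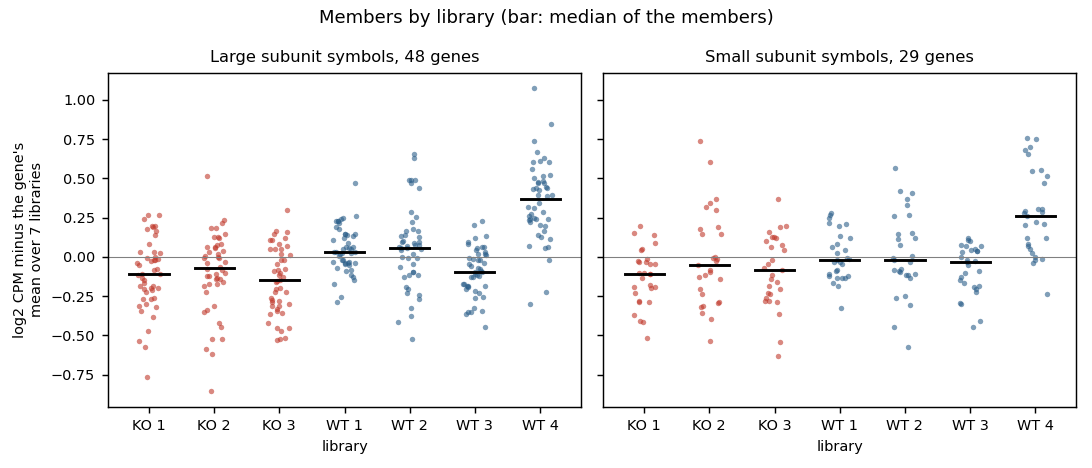
Log2 CPM of each transcript minus its own mean over the 7 libraries, by library, for the 48 large subunit genes (left) and the 29 small subunit genes (right). Points are genes and bars are medians. The bar of WT replicate 4 stands highest in both panels, at 0.37 for the large and 0.26 for the small subunit, while WT replicate 3 lies at -0.09 for the large subunit, among the KO libraries.

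The difference was much smaller without WT replicate 4, the library with the highest cell cycle sum. This library was the highest of all 7 libraries for 46 of 77 members and the highest WT library for 56 (72.7%), where it was the highest WT library for 34.0% of genes of 10 CPM or more. Its level exceeded the mean of WT replicates 1 to 3 by a median log2 of 0.31 over the members, 0.32 in the large and 0.27 in the small subunit, against -0.07 over genes of 10 CPM or more. WT replicate 3 was the lowest WT library for 51 members (66.2%), against 18.5% of genes of 10 CPM or more. Without WT replicate 4 the median log2 difference of the 77 was -0.06, with 50 below 0. Without both KO replicate 1 and WT replicate 4 it was -0.04, with 44 of 77 below 0, -0.06 for the large and -0.00 for the small subunit. In that fit 14 members were lower and 5 higher at an unadjusted p under 0.05, against 14.7% lower and 14.7% higher of all genes and 18.5% lower and 12.8% higher of genes of 10 CPM or more. The 14 were 18.2% of the members, 20.8% of the large and 13.8% of the small subunit, near the background of genes of that level, and edgeR called 0 after adjustment, where it called 4.2% of genes lower and 5.43% higher. Of the 16 members lower in the fit of all libraries, 13 were also lower at that threshold in the smaller fit, whereas 18 of the 62 members below 0 turned positive, among them Mrps6 (-0.38 with all libraries, 0.03 without both) and Mrpl9 (-0.27 and 0.00). The part of cell cycle activity in these differences was not tested.

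Mrpl33, a short protein of the large subunit with a bacterial counterpart, had the largest log2 difference. It was at 37.6, 37.9 and 39.2 CPM in KO, against 75.3, 73.9, 53.0 and 86.6 CPM in WT. The KO libraries lay within a narrow band and the lowest WT library, replicate 3, was well above them. The log2 difference was -0.92 ± 0.18 (SE), or 0.529 of the WT level, with an unadjusted p of 0.00111 and an adjusted p of 0.0710 by edgeR. Over the alternatives its adjusted p ran from 0.000582 (DESeq2) to 0.242. Without KO replicate 1 and WT replicate 4 it was -0.79 (edgeR adjusted p = 0.0596). Mrpl33 lies at chr5:31596935-31664384 on the plus strand (mm10), and its principal transcript has 478 bases. Its proximal promoter is printed because this member had the largest log2 difference and because a pair of motif matches meet at its start.

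The sequence runs from 150 bases before to 30 bases after the RefSeq transcript start (GRCm38.p6, chr5:31613801-31613980, plus strand), with letters that match the searched NRF1 motif (GCGCATGC) and ETS motif (CCGGAAG) in capitals.
Mrpl33: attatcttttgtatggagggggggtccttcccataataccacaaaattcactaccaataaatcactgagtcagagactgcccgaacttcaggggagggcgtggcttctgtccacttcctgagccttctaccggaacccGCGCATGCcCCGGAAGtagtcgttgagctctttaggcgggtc

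Mrpl32, Mrpl20, Mrpl41 and Mrpl42 were the other large subunit members called by DESeq2. Mrpl32, which in mouse and yeast is cut to its mature form by a protease of the mitochondrial inner membrane before it joins the ribosome, was at 55.5, 46.4 and 53.7 CPM in KO, against 75.5, 103, 71.2 and 76.9 CPM in WT. No KO library reached a WT library, and the log2 difference was -0.66 ± 0.17 (SE; edgeR adjusted p = 0.105). Mrpl20, a protein with a bacterial counterpart, was at 47.2, 43.8 and 47.3 CPM in KO, against 69.5, 92.6, 55.1 and 69.5 CPM in WT. The KO libraries again lay together under all WT libraries, and WT replicate 2 was highest (log2 -0.64 ± 0.18, SE; edgeR adjusted p = 0.135). Mrpl41, a protein particular to mitochondria, was at 43.7, 44.0 and 45.0 CPM in KO, against 62.2, 76.5, 54.1 and 64.6 CPM in WT. Its groups were apart, at log2 -0.54 ± 0.15 (SE; edgeR adjusted p = 0.121). Mrpl42, also particular to mitochondria, was at 69.3, 52.9 and 66.2 CPM in KO, against 92.2, 110.4, 75.2 and 108 CPM in WT. Its KO replicate 1 came closest to WT replicate 3 without reaching it (log2 -0.62 ± 0.18, SE; edgeR adjusted p = 0.132). All 4 kept their size without KO replicate 1 and WT replicate 4, with log2 differences of -0.72 for Mrpl32, -0.65 for Mrpl20, -0.51 for Mrpl41 and -0.62 for Mrpl42.

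The central protuberance, the crown of the large subunit that faces the small subunit, held members with log2 differences of both signs. Mrpl58, a peptidyl-tRNA hydrolase built into the large subunit that can free stalled ribosomes, was at 50.2, 78.5 and 77.2 CPM in KO, against 100.1, 95.8, 98.5 and 115 CPM in WT. All KO libraries were below all WT libraries, and KO replicate 1 was the lowest by far. The log2 difference was -0.58 ± 0.18 (SE; edgeR adjusted p = 0.155), and it was -0.31 without KO replicate 1 and WT replicate 4. Mrpl40 was at 49.4, 61.2 and 58.7 CPM in KO, against 75.9, 72.8, 69.5 and 104 CPM in WT. Its groups did not overlap and WT replicate 4 was highest (log2 -0.51 ± 0.18, SE; edgeR adjusted p = 0.187), with a log2 difference of -0.26 without both libraries. Mrpl38 was the only member higher in KO at an unadjusted p under 0.05, at 54.7, 73.7 and 56.1 CPM in KO, against 46.6, 41.1, 50.9 and 44.1 CPM in WT. Every KO library exceeded every WT library, by a small margin for KO replicates 1 and 3 over WT replicate 3. The log2 difference was 0.43 ± 0.16 (SE), with an unadjusted p of 0.0259 and an adjusted p of 0.201 by edgeR, and it was 0.51 without both libraries. Mrpl46 and Mrpl48, also of the central protuberance, had log2 differences of -0.13 and -0.12, which were 0.12 and 0.04 without both libraries. Mrpl18, which binds the RNA of this region, had -0.52 ± 0.18 (SE; edgeR adjusted p = 0.189), or -0.33 without both libraries. Not every protein of this region is named here.

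With all libraries, log2 differences at the other landmarks of the large subunit described here ran from -0.21 to 0.37. Mrpl10, Mrpl11 and Mrpl12, which form the stalk that calls in translation factors and its base, had log2 differences of -0.08 to -0.07, which were above 0 without both libraries, and overlapped between groups. Mrpl12 was at 64.8, 67.9 and 67.4 CPM in KO, against 64.2, 73.2, 60.6 and 81.7 CPM in WT, and all KO libraries were inside the WT range. Around the tunnel exit, where the new chain leaves, Mrpl22, Mrpl24 and Mrpl45 had -0.21, -0.01 and 0.16. Without both libraries they had -0.12, 0.00 and 0.41, the last with an unadjusted p of 0.0181 by edgeR. Mrpl23, also at the exit, was at 13.6, 13.6 and 12.9 CPM in KO, against 10.2, 10.1, 9.03 and 12.1 CPM in WT, so each KO library was slightly above each WT library (log2 0.37 ± 0.22, SE, or 0.46 without both libraries; edgeR adjusted p = 0.415). A processed copy, the pseudogene Mrpl23-ps1, which the rule leaves out and which is named here only because of its values, stood at 20.2, 125 and 76.4 CPM in KO, against 5.59, 5.45, 3.98 and 40.6 CPM in WT. Its values varied widely within each group and overlapped between them, and reads of the gene and the pseudogene could be split, so the level of Mrpl23 is uncertain. Mrpl39 and Mrpl50, both particular to mitochondria, completed the 10 large subunit members with the smallest p. Mrpl39 had a log2 difference of -0.49 ± 0.17 (SE) without overlap, and Mrpl50 had -0.63 ± 0.22 (SE), with KO replicate 1 at 32.8 CPM just above WT replicate 3 at 31.7 CPM (edgeR adjusted p = 0.189 for each). In the fit without both libraries they had -0.39 and -0.81.

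**Figure D3:**
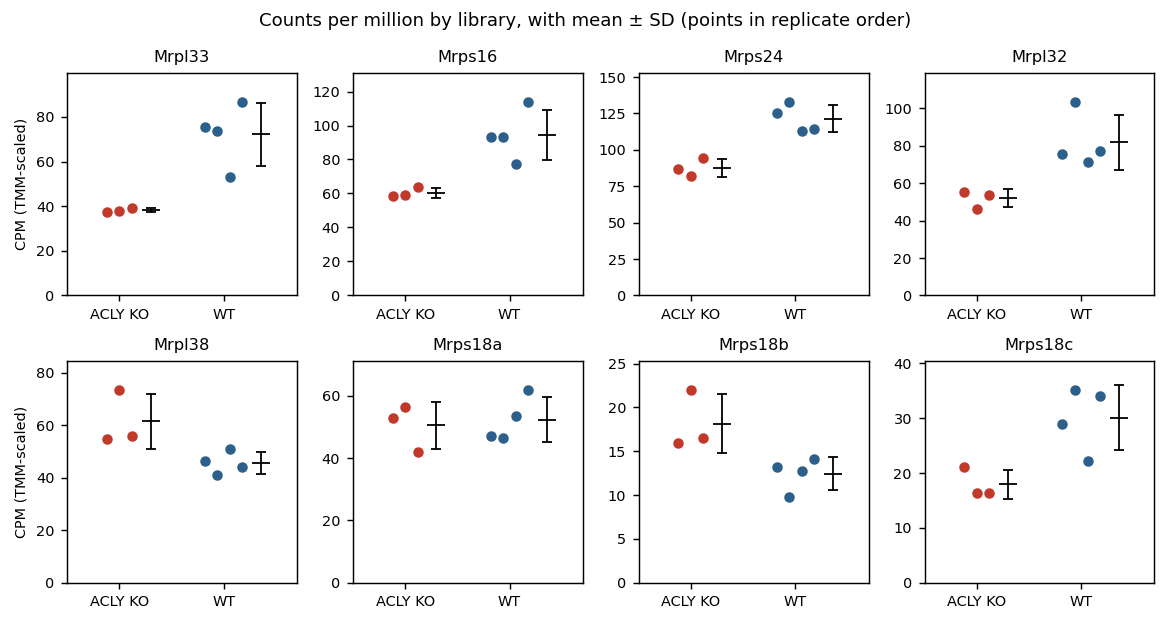
CPM by library for 8 members, each with the 3 ACLY KO libraries left and the 4 WT libraries right in replicate order, and the mean ± SD of each group beside the points. KO points lie below all WT points for Mrpl33, Mrps16, Mrps24, Mrpl32 and Mrps18c, above them for Mrpl38 and Mrps18b, and on both sides of WT points for Mrps18a, where KO replicate 3 is the lowest of all.

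Among small subunit members, Mrps16, Mrps24 and Mrps18c were lower in KO without overlap and were called by DESeq2. Mrps16, a protein with a bacterial counterpart in which mutations in people cause a mitochondrial disease of infancy, was at 58.3, 59.0 and 63.6 CPM in KO, against 93.1, 93.1, 77.5 and 114 CPM in WT. The KO libraries lay close together, under the lowest WT library, replicate 3. Its log2 difference was -0.65 ± 0.15 (SE; edgeR adjusted p = 0.0911, and 0.00894 by DESeq2 to 0.269 over the alternatives), or -0.50 without KO replicate 1 and WT replicate 4. Mrps24, the counterpart of a bacterial protein at the messenger RNA entry, was at 86.7, 82.2 and 94.3 CPM in KO, against 125, 133, 113 and 115 CPM in WT. The groups did not overlap, and here WT replicate 2 rather than replicate 4 was highest. Its log2 difference was -0.47 ± 0.12 (SE; edgeR adjusted p = 0.102, and 0.0123 by DESeq2 to 0.307 over the alternatives), and it was also -0.47 without both libraries. Mrps21, a protein with a bacterial counterpart, was at 55.0, 46.2 and 36.3 CPM in KO, against 65.3, 62.6, 53.1 and 90.3 CPM in WT. KO replicate 1 overlapped WT replicate 3 (log2 -0.56 ± 0.22, SE, or -0.53 without both libraries; edgeR adjusted p = 0.234). Mrps14, Mrps31 and Mrps35, further parts of the small subunit, had log2 differences of -0.33, -0.32 and -0.23, and their groups overlapped. Mrps2, a counterpart of a bacterial protein, was at 34.1, 33.9 and 33.2 CPM in KO, against 26.4, 21.9, 30.6 and 30.3 CPM in WT. All KO libraries stood above all WT libraries, at log2 0.31 ± 0.17 (SE, or 0.37 without both libraries; edgeR adjusted p = 0.388).

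The 3 Mrps18 genes encode related proteins at separate sites of the ribosome, and their log2 differences were of both signs, with none past the adjusted test of edgeR. Mrps18c, the counterpart of the bacterial protein in the small subunit, was at 21.0, 16.5 and 16.4 CPM in KO, against 28.9, 35.3, 22.2 and 34.1 CPM in WT. KO replicate 1 was only just under WT replicate 3, and no libraries overlapped (log2 -0.75 ± 0.22, SE; edgeR adjusted p = 0.145, and 0.0295 by DESeq2 to 0.337 over the alternatives). Mrps18b, a small subunit protein at another place, was at 15.9, 22.0 and 16.5 CPM in KO, against 13.2, 9.74, 12.8 and 14.1 CPM in WT. Every KO library was above every WT library, with an unadjusted p of 0.0507 (log2 0.54 ± 0.23, SE; edgeR adjusted p = 0.267). Mrps18a, which sits in the large subunit despite its symbol, was at 53.0, 56.5 and 42.1 CPM in KO, against 47.1, 46.6, 53.7 and 62.1 CPM in WT. Its groups overlapped, with KO replicate 3 below all WT libraries and KO replicates 1 and 2 among them, and its log2 difference of -0.05 changed sign under upper-quartile scaling (0.01) and in other fits. Without KO replicate 1 and WT replicate 4 the log2 differences were -0.79 for Mrps18c, 0.72 for Mrps18b and 0.03 for Mrps18a. Mrps18b shares 638 exon bases with Gm16279 and Mrps18c shares 250 with Gm43511, so reads there could belong to either gene of a pair.

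The promoters of Mrps16, Mrps18c and Mrps18b are shown because Mrps16 and Mrps18c were lower in KO and each KO library of Mrps18b was above every WT library, the last without passing the unadjusted threshold. Each runs from 150 bases before to 30 bases after a RefSeq start in GRCm38.p6: chr14:20393461-20393640, minus strand, for the first of the 2 starts of Mrps16; chr5:100798609-100798788, plus strand, for Mrps18c; and chr17:35916411-35916590, minus strand, for Mrps18b. Capitals mark the reverse complement of the ETS motif, CTTCCGG, found in Mrps16 alone.
Mrps16: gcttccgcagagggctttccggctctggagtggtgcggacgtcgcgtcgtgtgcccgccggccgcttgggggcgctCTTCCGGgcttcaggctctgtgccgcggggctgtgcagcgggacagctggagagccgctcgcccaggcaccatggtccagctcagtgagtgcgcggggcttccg
Mrps18c: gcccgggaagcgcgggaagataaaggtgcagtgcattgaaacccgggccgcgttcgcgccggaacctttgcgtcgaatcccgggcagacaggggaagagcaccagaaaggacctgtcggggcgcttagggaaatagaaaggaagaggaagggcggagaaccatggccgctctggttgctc
Mrps18b: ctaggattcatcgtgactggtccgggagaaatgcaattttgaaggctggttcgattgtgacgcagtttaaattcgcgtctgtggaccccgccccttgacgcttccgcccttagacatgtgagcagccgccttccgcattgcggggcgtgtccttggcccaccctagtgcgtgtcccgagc

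A pair of further Mrps symbols does not name small subunit proteins. Mrps30 sits in the large subunit and was at 41.1, 33.9 and 45.2 CPM in KO, against 40.2, 39.0, 45.1 and 47.8 CPM in WT. Its groups overlapped (log2 -0.10 ± 0.16, SE). Mrps36 is part of the oxoglutarate dehydrogenase complex of the citric acid cycle rather than of the ribosome, and was at 16.4, 13.4 and 14.6 CPM in KO, against 17.4, 16.7, 16.4 and 23.1 CPM in WT. KO replicate 1 lay just below WT replicate 3, and no libraries overlapped (log2 -0.32 ± 0.22, SE; edgeR adjusted p = 0.480). Counted by place in the ribosome, the large subunit had 50 members with a median log2 difference of -0.18 and 12 lower at an unadjusted p under 0.05, and the small subunit had 26 with -0.18 and 4. The 20 large subunit proteins found only in mitochondria had a median of -0.26, 18 below 0 and 8 lower at that threshold (40.0%), whereas the 30 with bacterial counterparts had -0.13 and 4 (13.3%). In the small subunit the 10 proteins found only in mitochondria had a median of -0.19 and 0 lower at that threshold, and the 16 with bacterial counterparts had -0.13 and 4 (25.0%). In the fit without both libraries the medians of the large subunit classes were -0.21, with 7 lower (35.0%), and -0.03, with 3 lower, and those of the small subunit classes were 0.03 and 0.01, with 0 and 4 lower. The order of the classes by count thus differed between the subunits. Among genes of 10 CPM or more, 12.4% were lower at that threshold with all libraries and 18.5% without both. The large subunit class with bacterial counterparts was near the first background and, without both libraries, below the second. The large subunit class found only in mitochondria and the small subunit class with bacterial counterparts stood above both. No difference between classes, or from the background, was tested.

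Members outside the rule for named genes, some of which are described above by their place in the ribosome, are given together here. Among the 36 such large subunit members, mean levels were 13.1 to 109 CPM in KO and 10.4 to 120.2 CPM in WT, 30 had a log2 difference below 0, and values ran from -0.53 to 0.37. Mrpl57 and Mrpl44 were the only ones of these with an unadjusted p under 0.05, at log2 -0.43 ± 0.15 and -0.39 ± 0.15 (SE; edgeR adjusted p = 0.192 and 0.228). Among the 16 such small subunit members, mean levels were 10.9 to 93.6 CPM in KO and 9.78 to 88.3 CPM in WT, 10 had a log2 difference below 0, and values ran from -0.38 to 0.32, with 0 at that threshold. The median coefficient of variation among replicates was 10.5% in KO and 15.0% in WT. Of the 77 members, 27 share exon bases with another measured gene, 18 of the large and 9 of the small subunit, so that reads could have been credited to a neighbour. The 50 that share none had a median log2 difference of -0.17, and 11 of them were lower in KO at an unadjusted p under 0.05.

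Per kilobase of principal transcript, members spanned a wide range of levels. In the large subunit Mrpl42 was highest over all 7 libraries, at 94.3 CPM per kb in KO and 145 in WT, while Mrpl52 was higher in KO, at 104 in KO and 135 in WT, and Mrpl33 was higher in WT, at 79.9 in KO and 151 in WT. Mrpl47 was lowest, at 3.74 in KO and 3.86 in WT. In the small subunit Mrps21 was highest, at 94.0 CPM per kb in KO and 139 in WT, and Mrps25 was lowest, at 2.85 in KO and 3.50 in WT. Both low members share exons with neighbours, Mrps25 over 4590 bases with Nr2c2 and Mrpl47 over up to 616 bases with Actl6a and Ndufb5. The order in the large subunit depends on the length used. Per kilobase of all annotated exons, Mrpl34 was highest there over all libraries, at 81.1 CPM, and Mrpl23 lowest, at 2.39. Mrpl42 was then at 22.3 and Mrpl33 at 7.87. In the small subunit Mrps21 and Mrps25 remained highest and lowest, at 79.0 and 2.97. Median levels over members were 42.8, 45.4 and 44.9 CPM in KO, against 49.5, 48.9, 45.6 and 62.7 CPM in WT, for the large subunit. For the small subunit they were 34.9, 33.9 and 35.9 CPM in KO, against 37.9, 36.5, 33.4 and 40.1 CPM in WT, and there the groups overlapped.

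Among other genes the shortest transcripts had the lowest median, and the members of the shortest class had the lowest median too, but their medians did not follow length beyond it. Among 12 members with a principal transcript of 750 bases or fewer, the median log2 difference was -0.33, and among 218 other genes of that length and of 10 CPM or more it was -0.41. Every KO library lay below every WT library for 41.7% of these members and for 38.1% of these other genes. At 751 to 1500 bases the medians were -0.14 for 35 members and -0.18 for 1080 other genes, and above 3000 bases they were -0.09 for 16 members and -0.07 for 4056 other genes. In the class of 1501 to 3000 bases the members stood apart from other genes, with a median of -0.30 for 14 members, 5 of them without overlap (35.7%), against -0.06 and 11.3% for 3078 other genes. Without KO replicate 1 and WT replicate 4 the medians of the members from the shortest to the longest class were -0.26, -0.00, -0.20 and -0.01, against -0.39, -0.11, -0.02 and -0.10 for other genes. Mrpl33 and Mrps18c are of the shortest class, and Mrps16 and Mrpl58 of the class of 1501 to 3000 bases. The part of transcript length in the differences was not tested.

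**Figure D4:**
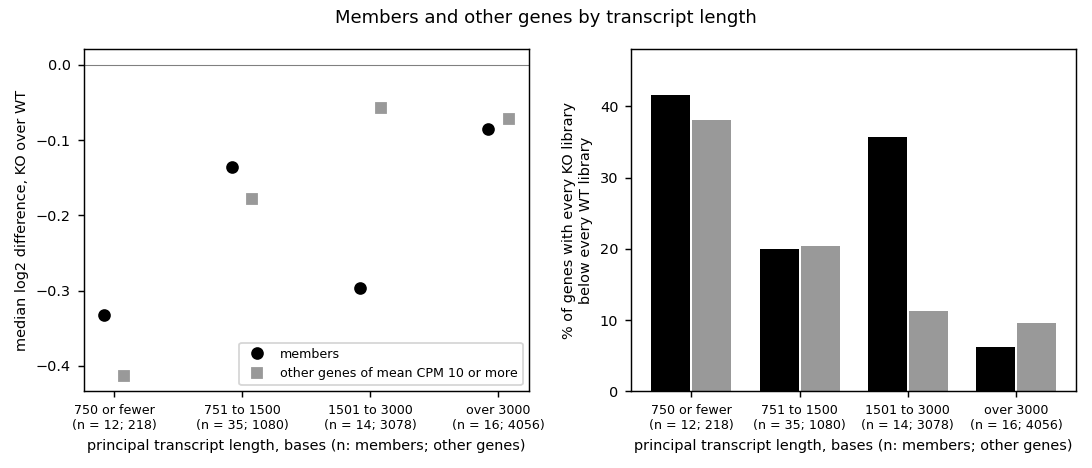
Members (black) and other genes with a mean of 10 CPM or more (grey) in 4 classes of principal transcript length. The left panel shows the median log2 difference, ACLY KO over WT, and the right panel the percentage of genes with every KO library below every WT library. Members and other genes lie near each other except at 1501 to 3000 bases, where the medians are -0.30 and -0.06.

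The mitochondrial ribosomal proteins can be set beside the cytosolic ones, which build the ribosomes outside mitochondria. The log2 difference was below 0 for 62 of the 77 mitochondrial and for 60 of the 78 cytosolic ribosomal proteins, with medians of -0.19 and -0.21. An unadjusted p under 0.05 with a lower level in KO was found for 20.8% of the mitochondrial and 14.1% of the cytosolic ones. The background was 7.89% of all genes and 12.4% of genes of 10 CPM or more. Every KO library lay below every WT library for 23.4% of the mitochondrial and 6.41% of the cytosolic ones, against 9.03% and 12.4%. Without KO replicate 1 and WT replicate 4 the medians were -0.04 and -0.10, and the shares without overlap were 24.7% and 12.8%. Both shares then lay below those of all genes (25.3%) and of genes of 10 CPM or more (29.8%). These shares were not tested against each other.

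Promoter letters were searched in RefSeq windows of 250 bases before to 50 after each start, which were matched for 68 of 77 members. Mrpl13, Mrpl15, Mrpl19, Mrpl38, Mrpl4, Mrpl54, Mrps28, Mrps34 and Mrps35 had none. Motifs were searched on both strands in all 27025 genes with such a window, and no motif contains another. Windows of neighbouring genes can overlap, so that 1 match can count for both. The ETS letters CCGGAAG were present for 25 of 68 members (36.8%) against 9.93% of all genes. The YY1 letters AAGATGGC were present for 12 (17.6%) against 3.19%, and the NRF1 letters GCGCATGC for 8 (11.8%) against 3.05%. NRF1, YY1 and ETS factors such as GABP are known as activators of nuclear genes for mitochondrial proteins. The E-box CACGTG was present for 7.35% of members and 8.09% of all genes, and TATAAA for 7.35% and 15.7%. Among the 16 members lower at an unadjusted p under 0.05, 7 held the ETS letters (43.8%) against 18 of the other 52 (34.6%). The same shares were 18.8% and 9.62% for the NRF1 letters and 18.8% and 17.3% for the YY1 letters. They were 12.5% and 5.77% for the E-box and 6.25% and 7.69% for TATAAA. These are matches of letters, not sites of binding, and the classes were not tested. The background of 27025 genes includes genes not measured here, and the share among genes of 10 CPM or more is not given. The shares therefore do not show an excess particular to the members.

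Mrps11 and Mrpl46 are shown as a pair because they lie head to head on opposite strands, and their promoter windows overlap over 141 bases (chr7:78783040-78783180, GRCm38.p6). Both had small differences. Mrps11 was at 20.4, 21.2 and 24.1 CPM in KO, against 22.8, 22.8, 20.5 and 34.1 CPM in WT, and Mrpl46 was at 36.8, 48.2 and 53.2 CPM in KO, against 48.8, 50.6, 42.3 and 60.0 CPM in WT. The groups overlapped for both, at log2 -0.19 ± 0.22 and -0.13 ± 0.18 (SE), and WT replicate 4 was the highest library for each. Their exons share 173 bases. The shown stretches, from 150 before to 30 after each start, are chr7:78782981-78783160 on the plus strand for Mrps11 and chr7:78783060-78783239 on the minus strand for Mrpl46, with the reverse complement of the YY1 letters (GCCATCTT) and the letters TATAAA in capitals.
Mrps11: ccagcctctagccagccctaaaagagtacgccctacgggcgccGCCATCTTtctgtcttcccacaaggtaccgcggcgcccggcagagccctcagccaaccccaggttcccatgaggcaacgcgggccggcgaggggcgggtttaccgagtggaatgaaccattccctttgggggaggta
Mrpl46: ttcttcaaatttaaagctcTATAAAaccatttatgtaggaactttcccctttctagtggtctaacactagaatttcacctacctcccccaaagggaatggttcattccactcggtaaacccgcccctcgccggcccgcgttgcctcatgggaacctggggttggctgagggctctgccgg

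Other genes of mitochondrial translation lay on both sides of 0, with list medians between -0.05 and 0.12, and edgeR called 0 of them after adjustment with all libraries. Without KO replicate 1 and WT replicate 4 the list medians lay between -0.04 and 0.28. The counts at an unadjusted p under 0.05 stand against 7.89% lower and 11% higher over all genes. Of 5 ribosomal proteins with other names, 3 had a log2 difference below 0, and the median was -0.05. Of these Aurkaip1 was at 86.4, 97.4 and 100.2 CPM in KO, against 121, 147, 106 and 128 CPM in WT. Its KO libraries lay below all WT libraries, as for many members (log2 -0.41 ± 0.14, SE; edgeR adjusted p = 0.189). Chchd1 had -0.32 ± 0.18 (SE) with overlap. Of 24 assembly and rRNA modification factors, 11 were below 0, the median was 0.02, and 1 was lower and 2 higher at an unadjusted p under 0.05. Ddx28, an RNA helicase needed to assemble the large subunit, was at 27.8, 22.6 and 38.3 CPM in KO, against 52.8, 52.3, 49.1 and 47.7 CPM in WT. Its WT libraries were close together and above every KO library (log2 -0.77 ± 0.20, SE; edgeR adjusted p = 0.107, and 0.0121 by DESeq2 to 0.302 over the alternatives), and it shares exons with Dus2. Mettl17, an assembly factor of the small subunit, was higher in every KO library (log2 0.40 ± 0.14, SE; edgeR adjusted p = 0.185).

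Of 13 translation factors 6 were below 0, the median was 0.01 and 0 had an unadjusted p under 0.05. The release factor genes Mtrf1l and Mtrf1 had the smallest p, at log2 -0.29 ± 0.30 and -0.29 ± 0.32 (SE). Of 17 mitochondrial aminoacyl-tRNA synthetases, which load tRNAs, 8 were below 0 with a median of 0.01. At that threshold 2 of the 17 were higher, near the background of 11% of all genes. Ears2, which loads glutamate, was at 19.2, 19.8 and 21.9 CPM in KO, against 12.7, 9.49, 14.1 and 9.003 CPM in WT. Each KO library exceeded each WT library (log2 0.84 ± 0.24, SE; edgeR adjusted p = 0.129, and 0.00551 by DESeq2 to 0.309 over the alternatives), and Ears2 shares exons with Ubfd1. Tars2, which loads threonine, had 0.43 ± 0.14 (SE; edgeR adjusted p = 0.168), also without overlap. In the fit without KO replicate 1 and WT replicate 4 Tars2 had 0.59 (edgeR adjusted p = 0.0432), where 5.43% of genes were called higher. Of 9 genes of mitochondrial transcription and messenger RNA stability, 4 were below 0 with a median of 0.09, and 2 were higher at an unadjusted p under 0.05. Their median was 0.28 without KO replicate 1 and WT replicate 4. Lrpprc, which protects mitochondrial messenger RNAs, was at 94.8, 97.9 and 94.4 CPM in KO, against 74.9, 62.9, 74.7 and 64.2 CPM in WT. Its KO libraries lay together above all WT libraries (log2 0.47 ± 0.12, SE; edgeR adjusted p = 0.103, and 0.00260 by DESeq2 to 0.269 over the alternatives). Supv3l1, an RNA helicase of mitochondrial RNA decay, had 0.44 ± 0.18 (SE), also without overlap.

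The RNAs that the mitochondrial ribosome is built on and reads lay on both sides of 0. The large subunit rRNA mt-Rnr2 was at 1587, 1492 and 975 CPM in KO, against 1567, 1962, 1269 and 1349 CPM in WT. The small subunit rRNA mt-Rnr1 was at 200.4, 284 and 190.4 CPM in KO, against 173, 240, 126 and 262 CPM in WT. Both overlapped widely, at log2 -0.19 ± 0.24 and 0.17 ± 0.27 (SE). Of 13 listed genes for proteins encoded in mitochondrial DNA, 8 were measured, 3 were below 0, and the median was 0.12. Those with the smallest p were mt-Nd2 and mt-Nd5, subunits of respiratory complex I, at log2 0.29 ± 0.17 and 0.28 ± 0.16 (SE; edgeR adjusted p = 0.408 and 0.411). Levels of mitochondrial RNAs depend on how libraries were primed or depleted, which the sources used here do not state.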

How the data were processed

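The authors deposited raw counts of 16156 genes in 7 libraries, 3 ACLY KO and 4 WT, and log2 CPM values of the same genes. Trim Galore 0.6.0, STAR 2.7.8, the mm10 build and DESeq2 stand in the submitters' processing notes; what counted the reads, on which annotation and strand, and with which filter is not given in the sources used here. Log2 values that the authors deposited equalled edgeR's log2 CPM of their counts (TMM scaling, prior count 2) within 4.99e-09 and supplied the symbols. CPM printed here are TMM-scaled, from the counts. GENCODE M21 gave exons, coordinates and the length of 1 principal transcript per gene, and RefSeq (GRCm38.p6) gave promoters. Exon sharing was counted without regard to strand.

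Genotype was the only term in edgeR 4.0.16's quasi-likelihood test (R 4.3.3, Benjamini-Hochberg over all genes, threshold 0.05); filterByExpr removed 0 genes. The scripts were tested on simulated data. Member counts were 354 to 9072 per library, and a count of 3 equalled at most 0.0801 CPM before TMM scaling. Receptor shares rest on 8072 to 51865 counts, and exact Clopper-Pearson 95% intervals, the widest 45.6% to 47.8% in KO replicate 1, cover counting error only. The alternatives tried were upper-quartile and median-of-ratios scaling, a mean count of 10 or more, no filter, DESeq2 1.42.0, limma 3.58.1 (voom with quality weights), edgeR's bias-adjusted fit, the replicate number as a block, leaving out each library, leaving out KO replicate 1 and WT replicate 4 together, and subunits by structure; leaving out libraries for the receptor share was added after seeing the data.

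Named members were the 10 of each subunit with the smallest p (too few passed), those with the highest and lowest level per kb and the largest differences each way, Mrps18a, Mrps18b, Mrps18c, Mrps30 and Mrps36; from each pathway list the 2 smallest p; and Acly, mt-Rnr1 and mt-Rnr2. Mrpl10, Mrpl11, Mrpl12, Mrpl22, Mrpl23, Mrpl24, Mrpl44, Mrpl45, Mrpl46, Mrpl48, Mrpl52, Mrpl57, Mrps11 and Mrpl23-ps1 were named afterwards, for their place in the ribosome, their position or their values. The members, lists and alternatives were chosen with earlier results of these data known. The place of each protein, and whether bacteria share it, come from general knowledge of the ribosome's structure.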

Additional observations from a re-analysis of the deposited data

Results flagged for a closer look

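Within the 4 WT libraries, 9 of 77 members (11.7%) had 1 library that stood farther from its nearest neighbour than Dixon's 95% critical value allows, where chance flags about 1 group in 20. The share of all genes flagged in this way is not given here, so the excess cannot be credited to the members. In 8 of the 9 the library was WT replicate 4, which was high, so these 8 flags are not independent. Among genes of 10 CPM or more, WT replicate 4 was the highest WT library for 34.0% and the lowest for 45.1%. This library held 121 CPM of Mrpl57 (88.1 to 90.2 in other WT libraries), 75.4 CPM of Mrpl21 (51.2 to 54.3 in other WT libraries), 54.7 CPM of Mrpl27 (21.8 to 26.5), 69.2 CPM of Mrpl9 (55.9 to 57.7) and 47.4 CPM of Mrpl45 (24.8 to 26.9). It also held 88.4 CPM of Mrpl15 (69.4 to 72.2), 23.1 CPM of Mrps36 (16.4 to 17.4) and 25.1 CPM of Mrps6 (13.6 to 15.3). For Mrpl45 the KO libraries, at 33.3 to 36.9 CPM, lay between WT replicate 4 and the other WT libraries, and for Mrpl15 they ranged from 65.4 to 80.0 CPM. For the remaining member, Mrpl43, KO libraries ranged from 10.2 to 17.6 CPM, and WT replicate 2 was low at 13.3 CPM with the rest of WT at 17.1 to 17.7. WT replicate 4 also had the highest cell cycle sum, and the part of this in its high member levels was not tested. Groups of 3, such as the KO libraries, were not screened.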

How the results depend on the processing

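Across all genes edgeR called 0 higher and 0 lower in KO. DESeq2 called 1036 and 525, limma voom 860 and 272, the bias-adjusted fit 497 and 77, and the fit without KO replicate 1 and WT replicate 4 called 864 and 668; leaving out 1 library gave 0 to 142 higher and 0 to 48 lower. Of the members, DESeq2 called 8 lower and the bias-adjusted fit Mrpl33. Large subunit members lower at an unadjusted p under 0.05 numbered 12, and 7 with the replicate block; leaving out 1 library gave 7 (without KO replicate 3) to 12. Those with every KO library below every WT library numbered 14, 9 under upper-quartile scaling and 12 to 20 with 1 library left out; in the small subunit 4 became up to 7 (without KO replicate 3 or WT replicate 3; lowest 4), and 3 to 5 were lower at the unadjusted threshold. This count has no value under the tests, filters and block, which do not rescale CPM. The large subunit median ranged from -0.24 to -0.11 with 1 library left out. The small subunit median of -0.16 was -0.0629 with voom, -0.0316 with the replicate block, -0.000677 without both libraries, and -0.217 to -0.0446 (without WT replicate 4) with 1 left out. With 1 left out the receptor share difference ranged from -60.4 to -41.2 percentage points. Upper-quartile scaling moved the median of all genes by 0.06 and voom by -0.07. Among the named genes followed through every alternative, 5 reversed sign. Mrpl47 gave 0.00976 with upper-quartile scaling, 0.043 with the replicate block and -0.158 to 0.138 with 1 library left out. Mrps18a gave 0.00776 with upper-quartile scaling, 0.0703 with voom, 0.0344 with the replicate block, 0.0256 without both libraries and -0.138 to 0.0656 with 1 left out. With 1 left out Mrps30 ranged from -0.2 to 0.00337, mt-Rnr2 from -0.317 to 0.00249 and mt-Rnr1 from -0.0336 to 0.327. Causes were not tested. Correlations of same-numbered deviations were -0.108, -0.0513 and 0.137, and those of other pairs of KO and WT libraries ran from -0.088 to 0.0988. So few values do not show whether replicate numbers pair the samples. Members had 354 or more counts in each library, so depth limits these values less than the number of libraries, 3 against 4.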
